A study of Homo sapiens with 6 samples.

Results

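A set of 9 genes of glycolysis, LDHA, ENO1, PKM, HK2, GAPDH, TPI1, SLC2A1, GPI and ALDOA, was examined for MYC binding in ONS76 cells, and all 9 of them carried a MYC peak in each of 3 replicates. A peak was assigned to a gene when its summit, the position of highest signal, lay within 5 kb of the transcription start of that gene in hg19, as supplied with the gene list. For ALDOA, which has several starts, any summit in the 22 kb region chr16:30060000-30082000 was taken. In this way 53 of 59006 peaks were assigned, with 21 of 24899 in replicate 1, 17 of 16809 in replicate 2 and 15 of 17298 in replicate 3. This assignment uses position alone and not peak height. Positions within 5 kb of a summit in every replicate made up 3.88% of the span of the genome that the lists covered. That share counts base positions and not gene starts, and it does not match the 22 kb region used for ALDOA. In the study, regions of promoters and transcription starts held the most peaks, so the share is a low comparison for gene starts. The share of all gene starts in hg19 with a peak was not analysed here.

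ONS76 is an established human medulloblastoma cell line, and the labels of every library give inducible SOX2 as its engineered genotype, whereas the study's methods for this assay name only ONS76. The study mapped MYC in these cells to find candidate target genes, and by its own account SOX2 was not elevated for this experiment. The labels give 3 libraries made with an antibody against MYC and 3 made with normal IgG, a non-specific antibody. The IgG libraries were not analysed here, and no treatment is named in the labels of either group. All libraries came from 1 cell line, so the replicate error describes spread between libraries of that line and not between tumors. Separate cultures are named for them neither in the labels nor in the methods. Replicate 1 was taken as the deepest library from its genome-wide background level. This level, recovered from the peak list, was 7.79 fragments per site, against 5.84 in replicate 2 and 4.76 in replicate 3. Read totals were not used.

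Glycolysis converts glucose to pyruvate in the cytosol and yields ATP and building blocks for growth. SLC2A1 (GLUT1) carries glucose into the cell, HK2 phosphorylates it, GPI, ALDOA and TPI1 rearrange and split the sugar, GAPDH, ENO1 and PKM act in the lower, energy-yielding steps, and LDHA turns pyruvate into lactate. MYC is a transcription factor that binds DNA as a heterodimer with MAX and prefers the E-box, whose canonical form is CACGTG. Several glycolysis genes, LDHA among them, are well known as MYC target genes in proliferating tumor cells.

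The canonical E-box was present in the promoter sequence of 4 of the 9 genes, LDHA, HK2, GAPDH and ALDOA. Promoter windows of 300 bases, from 250 before to 50 after each start, were taken from RefSeq (GRCh38.p14) by gene symbol. All 9 symbols matched, with 14 windows because LDHA, HK2, TPI1 and ALDOA have more than 1 start. CACGTG, which reads the same on both strands, was found in 4 of these 14 windows (28.6%), against 7.26% of all 35116 windows of the table. By gene, these were 4 of 9 (44.4%), against 8.77% of all 27305 genes. The sequences are shown for LDHA, HK2 and GAPDH, 3 of the 4 genes with CACGTG, because they place the E-boxes against the start. ENO1, the gene with the highest MYC enrichment, had no CACGTG, and ALDOA, which had it, was 7th of the 9. A relation between the motif and enrichment was not tested. They run 5′ to 3′ in the direction of the gene over the 250 bases before the start, with CACGTG in capitals. The intervals are chr11:18394313-18394562 (plus strand, the first LDHA start), chr2:74834920-74835169 (plus strand, the second HK2 start) and chr12:6535014-6535263 (plus strand, the RefSeq GAPDH start).
LDHA: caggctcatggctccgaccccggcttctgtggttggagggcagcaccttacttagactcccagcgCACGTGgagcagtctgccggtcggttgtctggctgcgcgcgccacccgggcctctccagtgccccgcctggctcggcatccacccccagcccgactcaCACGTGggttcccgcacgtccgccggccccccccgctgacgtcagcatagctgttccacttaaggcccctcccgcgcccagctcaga
HK2: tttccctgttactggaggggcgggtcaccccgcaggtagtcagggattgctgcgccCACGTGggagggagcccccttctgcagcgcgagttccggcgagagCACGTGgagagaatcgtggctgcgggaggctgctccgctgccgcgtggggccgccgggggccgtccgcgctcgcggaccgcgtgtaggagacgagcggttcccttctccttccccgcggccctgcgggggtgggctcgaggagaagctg
GAPDH: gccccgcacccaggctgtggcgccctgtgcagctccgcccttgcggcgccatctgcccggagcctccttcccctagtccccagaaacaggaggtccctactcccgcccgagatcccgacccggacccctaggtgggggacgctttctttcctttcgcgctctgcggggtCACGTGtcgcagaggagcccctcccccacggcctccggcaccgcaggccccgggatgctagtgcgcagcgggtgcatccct

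The LDHA window held 2 copies, which began 185 and 87 bases before the start. In HK2 the first start had none, and the second start, 1043 bp further into the gene, had 2 copies that began 194 and 149 bases before it. GAPDH had 1 copy, 81 bases before its RefSeq start, and the second of the 3 ALDOA starts had 1 copy, 112 bases before it. These distances are from RefSeq starts, which can differ from those of other annotations. The nearest GENCODE gene start in hg38 lay 752 bp from the RefSeq start of GAPDH, 629 bp for PKM, 504 bp for ENO1, 412 bp for TPI1 and 5512 bp for GPI. The bases printed for GAPDH are therefore not those just before its GENCODE start. Nor are the E-box distances and the summit distances given below on a common scale. The letters CACGTG were not in the windows of ENO1, PKM, TPI1, SLC2A1 and GPI. The related form CACGCG, or its reverse complement CGCGTG, was found in 5 windows (35.7%, against 11.4% of all windows) and belonged to HK2, LDHA, PKM and TPI1. CATGTG, or its reverse complement CACATG, was found in 1 window, of TPI1, against 11.1% of all windows. Among 21 other genes of the pathway, 17 matched the table with 40 windows. CACGTG was found in 3 of these windows (7.50%), in ALDOC, PFKFB3 and PKLR, which is 3 of the 17 genes (17.6%). These matches describe sequence and were not tested as binding sites. The deposited peaks are in hg19 and the sequences in hg38, so no motif was placed under a summit.

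MYC enrichment was highest at ENO1 and LDHA and lowest at GPI, with a 4.11-fold difference between the highest and the lowest mean. Each gene was represented by its strongest peak, with the deposited fold enrichment, a ratio of fragments at the summit to the local background with 1 added to both. ENO1 had a mean of 22.7 ± 1.93 (SD, n = 3, as for all means below), followed by LDHA at 19.1 ± 2.94. GAPDH at 15.7 ± 2.07 and HK2 at 15.4 ± 2.02 came next and overlapped. PKM at 11.3 ± 0.649, SLC2A1 at 10.1 ± 1.96 and ALDOA at 9.88 ± 1.71 formed the middle of the order. TPI1 reached 7.93 ± 1.02 and GPI 5.53 ± 0.817. The highest gene exceeded the lowest 4.63-fold in replicate 1, 4.67-fold in replicate 2 and 3.26-fold in replicate 3.

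**Figure D1:**
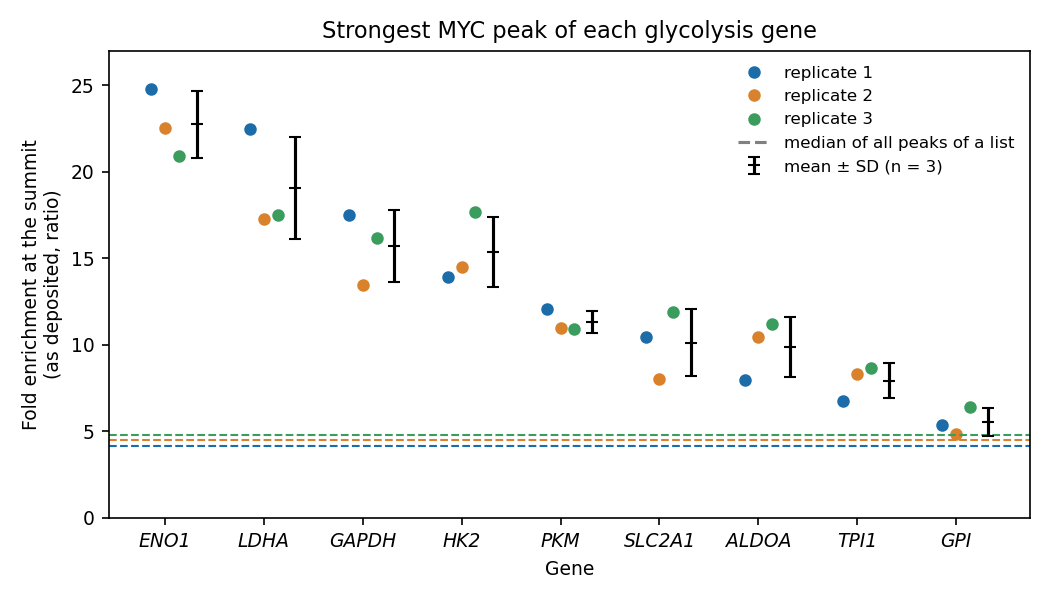
Fold enrichment of the strongest MYC peak of each gene (vertical axis, deposited ratio) for 9 glycolysis genes in order of their mean (horizontal axis); dots are replicates, black bars are mean ± SD (n = 3), and dashed lines are the median of all peaks in the list of the same color. ENO1 lies between 20.9 and 24.8 and GPI between 4.82 and 6.43, and every gene lies above the median of its own list (4.15, 4.49 and 4.78).

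The median over the 9 genes was 12.1, 10.96 and 11.9 in replicates 1, 2 and 3 (mean 11.7 ± 0.600). The median over all peaks was 4.15, 4.49 and 4.78, with a mean of 4.47 ± 0.315. The genes' median was therefore 2.91, 2.44 and 2.49 times that of the list. Each gene is represented by the highest of up to 4 peaks, which raises its value relative to single peaks of the list. By the study's account the lists also hold peaks outside promoters, and no median over peaks near gene starts alone was made. Places found in all 3 replicates, which are stronger than the rest, had medians of 5.89, 5.10 and 5.53. At or above the 90th percentile of their list were 6 genes in replicate 1, 6 in replicate 2 and 7 in replicate 3.

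Pairs of genes were compared with an exact two-sided permutation test on log2 fold enrichment, in which 3 against 3 values cannot give a p below 0.1. Of 36 pairs, 27 (75.0%) had values that did not overlap between the genes, against 58.5% of all pairs of places found in all 3 replicates. Both genes of a pair were measured in the same 3 libraries, and within libraries the order was the same in every replicate for 30 pairs (83.3%), against 71.4% of all pairs of places. For each of these 30 pairs the exact two-sided paired permutation test gave p = 0.25, the smallest that 3 libraries allow. Among the 8 pairs of neighbours in the order, 2 did not overlap. HK2 exceeded PKM by 0.43 ± 0.244 on the log2 scale (exact permutation p = 0.1), and TPI1 exceeded GPI by 0.52 ± 0.237 (exact permutation p = 0.1).

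The other neighbours overlapped, although 3 of these pairs kept their order within every library. ENO1 was above LDHA in 3 of 3 replicates, by 0.26 ± 0.122 on the log2 scale, but the highest LDHA value, 22.5, lay within the range of ENO1 (exact permutation p = 0.2, paired p = 0.25). LDHA and GAPDH also kept their order in 3 of 3 replicates (difference 0.28 ± 0.140, exact permutation p = 0.3, paired p = 0.25), as did ALDOA and TPI1 (0.31 ± 0.0704, exact permutation p = 0.3, paired p = 0.25). GAPDH was above HK2 in only 1 of 3 replicates, and their difference was 0.03 ± 0.259 (exact permutation p = 1.0). PKM and SLC2A1 differed by 0.18 ± 0.287 (exact permutation p = 0.4), and SLC2A1 and ALDOA by 0.03 ± 0.392 (exact permutation p = 0.7). A p above the smallest possible value does not show that such pairs were bound alike.

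Glucose uptake and the first enzymatic step were represented by SLC2A1 and HK2. SLC2A1, on the minus strand of chromosome 1, had its strongest peak at chr1:43423537-43424941, with fold enrichments of 10.5, 8.03 and 11.9 in replicates 1, 2 and 3. Replicate 2 was the lowest, at the 86.7th percentile of its list, and the others were above the 93rd. Its summits lay 486, 513 and 489 bp into the gene. A weaker place 5′ of the start, chr1:43426930-43427539, was also bound in all 3 replicates, with 5.37, 3.65 and 3.13 at 2576, 2530 and 2560 bp before the start. A further peak 3931 bp before the start was called in replicate 1 alone, at 2.98.

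HK2, on the plus strand of chromosome 2, had 1 place, chr2:75061058-75062872, with fold enrichments of 13.9, 14.5 and 17.7. The summits lay 1110, 1042 and 1002 bp into the gene and not at the given start. RefSeq lists a second HK2 start 1043 bp after the first in hg38, the one whose window with 2 E-boxes is printed above. The given hg19 start was not matched to either, so whether the peak lies at that second start was not determined. The peak was 1815 bp wide in replicate 1, where it reached back to the start, and 780 and 730 bp in the other replicates. HK2 had the highest mean background of the 9 genes, at 1.33 ± 0.173 times the genome-wide level (1.50, 1.34 and 1.16 in replicates 1, 2 and 3). Its enrichment is measured over this raised background.

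GPI, ALDOA and TPI1 act in the middle of the pathway and had the 3 lowest means. The values of ALDOA overlapped with those of SLC2A1 and PKM, and those of TPI1 with SLC2A1. GPI, on the plus strand of chromosome 19, had 1 place, chr19:34855803-34856690, with 5.35, 4.82 and 6.43. These values stood at the 68.4th, 56.4th and 73.3rd percentile, so the GPI peak was close to an ordinary peak of these lists. Its summits lay 626, 638 and 607 bp into the gene, within 31 bp of each other. They held 46 (95% Poisson interval 33.7 to 61.4), 32 (21.9 to 45.2) and 36 fragments (25.2 to 49.8). The list medians were 44, 34 and 30 fragments.

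At ALDOA, on the plus strand of chromosome 16, the strongest place was chr16:30075200-30078081, with 7.95, 10.5 and 11.2. Replicate 1 was lowest, at the 86.6th percentile, and the others stood at the 93.5th and 93.6th. The local background at this summit was 1.68 times the genome-wide level in replicate 1 and 1.01 times in both others. The recovered fragments were 111, 71 and 64, in libraries of unequal depth, and the part of background in the fold of replicate 1 was not tested. Replicates 1 and 2 had a second peak within the same place, at 4.76 and 6.45, and replicate 3 had a single peak of 2154 bp across it. A separate peak at chr16:30064228-30064535 was called in replicate 1 alone, at 3.07.

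TPI1, on the plus strand of chromosome 12, had 1 place within 5 kb, chr12:6976452-6977424, with 6.77, 8.33 and 8.68. Replicate 1 was again the lowest. Its background was 1.24 times the genome-wide level, against 1.00 in the others, and the part of background in its fold was not tested. The summits lay 571, 569 and 597 bp into the gene, and RefSeq lists a second TPI1 start 574 bp after the first in hg38. Whether the peak lies at that second start was not determined. Just outside the 5 kb limit, at 5142, 5151 and 5164 bp, all 3 replicates had a further peak of 4.11, 5.41 and 5.21. Another followed at 6055, 6056 and 6070 bp with 6.71, 4.97 and 5.04. Both lay beyond the length of the gene, which is 3830 bp in hg38.

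Of the genes of the lower, energy-yielding steps, ENO1 and GAPDH were among the 4 with the highest mean and PKM was the next below them. GAPDH, which oxidizes glyceraldehyde 3-phosphate, had its strongest place at chr12:6642520-6644803 on chromosome 12 (plus strand), with 17.5, 13.4 and 16.2. The summits lay 325, 196 and 302 bp before the given start. This was the broadest of the strongest peaks in replicates 1 and 2, at 2284 and 2048 bp, and 2082 bp wide in replicate 3. A second place, chr12:6647754-6648486, had 4.64, 6.68 and 5.91 (mean 5.74 ± 1.03) at 4405, 4375 and 4380 bp, past the gene's length of 3863 bp in hg38. A peak 1900 bp before the start was called in replicate 1 alone, at 3.87.

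ENO1, the enolase gene on the minus strand of chromosome 1, had the highest fold of the 9 genes in every replicate, with 24.8, 22.5 and 20.9 at chr1:8937817-8939798. These peaks ranked 96th of 24899, 79th of 16809 and 146th of 17298. They held 248, 171 and 147 fragments. The summit lay 515 and 557 bp into the gene in replicates 1 and 2 but 583 bp before the start in replicate 3, a spread of 1140 bp within peaks of 1902, 1866 and 1800 bp. The other genes' summits differed by at most 129 bp between replicates. A second ENO1 place, chr1:8933694-8934190, had 7.52, 7.21 and 6.12 (mean 6.95 ± 0.734), the highest mean among places that were not the strongest of their gene. Its summits, at 4812, 4832 and 4830 bp, were the assigned ones nearest to the 5 kb limit. A weak place at chr1:8936568-8937128 was called in replicates 1 and 3, at 2.80 and 3.53.

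PKM encodes the pyruvate kinase of most tissues and of tumor cells and lies on the minus strand of chromosome 15. Its strongest place, chr15:72522472-72524281, had 12.1, 10.96 and 10.94, the smallest SD of the 9 genes. The summits lay 25, 9 and 71 bp into the gene. In replicates 1 and 2 a second peak stood in the same place at 848 and 855 bp, with 5.67 and 4.39, and replicate 3 had a single peak of 1673 bp. Further into the gene, chr15:72521260-72521858 had 3.98, 4.24 and 4.19 (mean 4.14 ± 0.136), and chr15:72518718-72519459 was called in replicates 1 and 2 at 4.10 and 3.51.

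LDHA encodes the A subunit of lactate dehydrogenase and lies on the plus strand of chromosome 11. Its strongest place, chr11:18415549-18417049, had 22.5, 17.3 and 17.5, ranks of 144, 211 and 275 in the lists. Replicate 1 was the highest, and the other replicates were close to each other. The summits were at -1, 7 and -1 bp from the given start, the closest to the start and the closest to each other of the 8 genes with a given start. They held 219 (95% Poisson interval 191 to 250), 117 (96.8 to 140) and 101 fragments (82.3 to 123). A second place, chr11:18417361-18418020, had 4.83, 4.09 and 5.04 (mean 4.65 ± 0.495) at 1691, 1635 and 1589 bp into the gene. In hg38, RefSeq lists a second LDHA start 1788 bp after the first, and whether this second place lies at it was not determined.

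**Figure D2:**
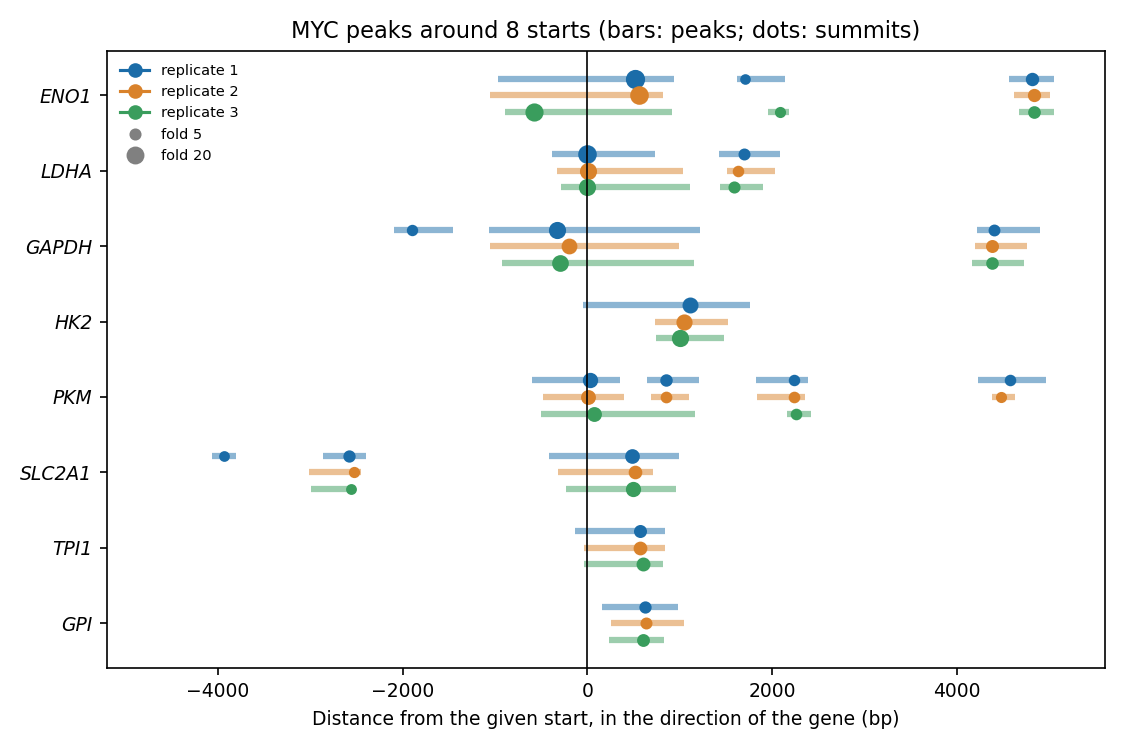
MYC peaks around the given starts of 8 genes (ALDOA has no single given start); the horizontal axis is the distance from the start in the direction of the gene in bp, bars are peaks of the 3 replicates by color, dots are summits, and larger dots have higher fold enrichment. LDHA and PKM summits sit at the start, GAPDH summits 196 to 325 bp before it, and HK2 summits 1002 to 1110 bp after it.

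Binding near the genes was spread over 19 places, where a place is a set of peaks of different replicates that overlap by at least 1 bp. Of these, 14 (73.7%) had peaks in all 3 replicates, against 45.0% of all 27801 places. Peaks from 2 replicates made up 2 places (10.5%, against 17.4%) and peaks from 1 replicate made up 3 places (15.8%, against 37.6%). All 3 of the latter were called in replicate 1, the deepest library, whose list is also the longest (24899 peaks, against 16809 and 17298). The share of replicate 1 among all places of 1 replicate was not counted. HK2, GPI and TPI1 had 1 place each, LDHA and ALDOA had 2, and the other 4 genes had 3. The strongest place of every gene was one of the 14.

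The strongest peaks were wide. Their median width was 1405, 1028 and 1395 bp in replicates 1, 2 and 3, against 499, 438 and 437 bp for all peaks. The narrowest were GPI in replicates 1 and 3, at 822 and 592 bp, and HK2 in replicate 2, at 780 bp. Width and fold come from the same fragments and are not independent measures.

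**Figure D3:**
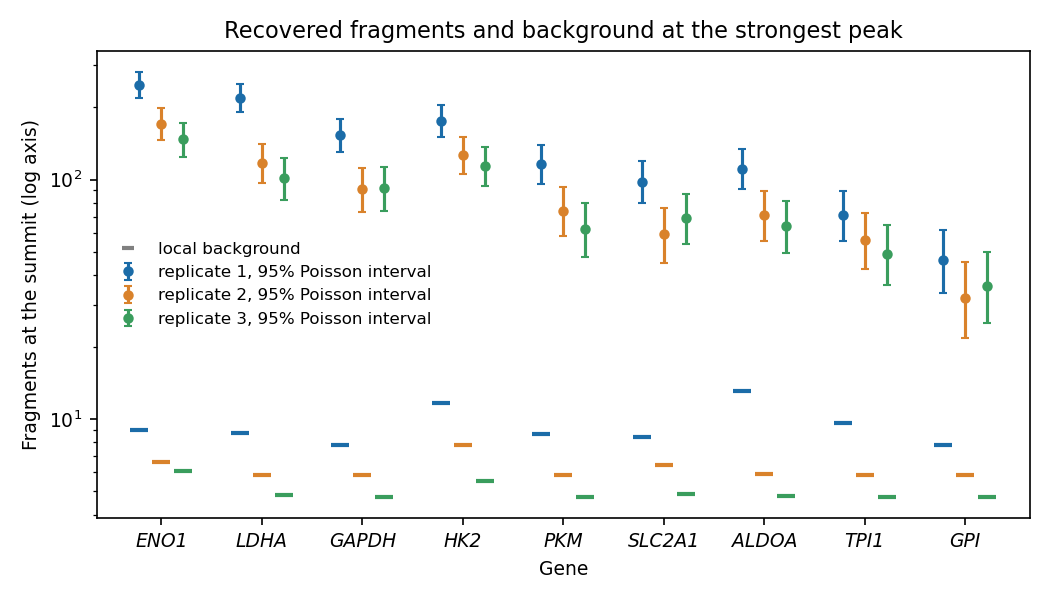
Fragments at the summit of the strongest peak (dots, with 95% exact Poisson intervals that cover counting error only) and local background in fragments (short bars) for each gene and replicate, on a logarithmic vertical axis. ENO1 holds 147 to 248 fragments and GPI 32 to 46, and the background varies far less, with HK2 and ALDOA raised in replicate 1.

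Background differed little among the genes compared with fragments. Relative background, the local level over the genome-wide level of the same list, had a median of 1.13, 1.00 and 1.01 over the 9 genes, against 1.16, 1.05 and 1.06 over all peaks. The genome-wide level is the lowest background of its list, so no value falls below 1.00 and a lower local level would not show. GAPDH and GPI were at the genome-wide level in all 3 replicates. In total 2, 5 and 4 genes were at that level, where the lists had 28.9%, 40.4% and 39.97% of their peaks. ENO1, the gene with the highest fold, had 1.16, 1.14 and 1.28. The part of background in the order of the genes was not tested beyond these values.

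Between replicates, the fold of some genes moved more than that of most places. Over the 12499 places found in all replicates, the ratio of replicate 1 to replicate 2 had a median of 1.14, with 0.742 and 1.67 as the 5th and 95th percentiles. For replicate 1 to 3 the median was 1.05 (0.686 to 1.56) and for replicate 2 to 3 it was 0.926 (0.654 to 1.33). The 9 genes all lay within these bands, but ALDOA, SLC2A1 and TPI1 came near the lower edge. LDHA, GAPDH and SLC2A1 shared a ratio of 1.30 between replicates 1 and 2, whereas TPI1 and ALDOA had 0.812 and 0.760. ALDOA stood at the 5.92nd percentile of all places for replicates 1 and 2 and at the 6.28th for replicates 1 and 3. SLC2A1 stood at the 6.82nd for replicates 2 and 3, and TPI1 at the 9.22nd for replicates 1 and 2.

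**Figure D4:**
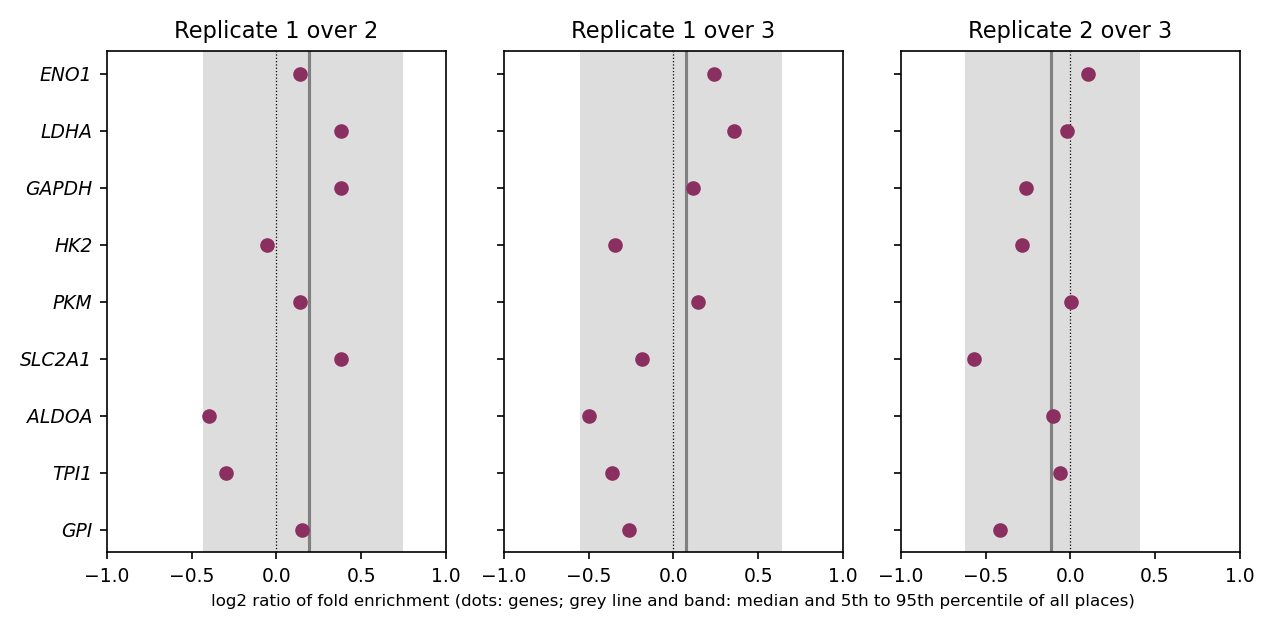
Ratio of fold enrichment between replicates at the strongest place of each gene (horizontal axis, log2; dots), with the median (grey line) and the 5th to 95th percentile (grey band) of 12499 places found in all replicates. Every gene lies inside the band in all 3 panels, and ALDOA lies closest to its lower edge when replicate 1 is compared.

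In GENCODE 44 (hg38), no other protein-coding gene starts within 5 kb of the GENCODE or RefSeq starts of these 9 genes. Noncoding genes do. Their distances are from the nearest of these starts, which need not be the start given in hg19. ENO1-AS1, HK2-DT and SLC2A1-DT start on the opposite strand 149, 140 and 156 bp before the start of ENO1, HK2 and SLC2A1, and GAPDH-DT starts 1014 bp before that of GAPDH. Noncoding genes without a symbol start on the opposite strand 68 bp before GPI, 328 bp after a start of ALDOA and 3106 bp after that of GAPDH. On the same strand, another starts 2971 bp before SLC2A1 and RNU6-304P starts 4343 bp before ENO1. Where such a start lies close to that of the glycolysis gene, a peak there cannot be assigned to one or the other. Whether a peak falls in an exon, an intron or an untranslated region was not determined, since the gene models and the peaks are in different builds. Peak values for other genes of the pathway were not analysed here for the same reason.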

How the data were processed

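The authors aligned reads with Bowtie2 to hg19 and used MACS2 to call the peaks of single libraries, with a q-value threshold of 0.05. Program versions, the MACS2 control and the treatment of duplicates were not given in the sources used here. Several immunoprecipitations of the same chromatin were combined, so SDs and p-values measure spread between libraries that may be technical. Each deposited peak has a fold enrichment, which is a ratio of fragments to local background after 1 is added to each. It also has a −log10 p-value, a −log10 q-value and a deposited score, computed from the q-value. Values were not scaled between libraries, and read totals were not used here. A fold with 1 added understates enrichment most in the shallowest library.

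Fragments and background at each summit were recovered from the deposited fold and −log10 p-value, with a whole fragment number within 0.001 for 100% of peaks. Relative background is background over the lowest of its list. Poisson intervals (95%) cover counting error only. Percentiles are within a list. Peaks that overlapped by 1 bp were merged into places. Start positions in hg19 were given with the gene list and could not be checked against an hg19 annotation, and distances from them may be off by 1 bp. The reference used was hg38 (GENCODE 44, RefSeq GRCh38.p14). In 13 chromosomes 715 peaks lie past its ends, so no position was moved between builds. The 9 genes and the list of 21 other pathway genes were chosen with earlier results of these data known, all 9 being described, and no set test was made. Pairs of genes were compared with exact permutation tests, unpaired and paired by library. Scripts were tested on simulated data and run in Python 3.11.15 with numpy 2.4.6, pandas 2.3.3 and scipy 1.17.1. Other windows, q-values, overlap rules, motif stretches, peaks and left-out replicates were tried.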

Additional observations from a re-analysis of the deposited data

How the results depend on the processing

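All 9 genes had a peak in every replicate used under each alternative but a 1 kb window, which left 8 because HK2 summits lie 1002 to 1110 bp from the start. The mean of the median fold over the genes, 11.7, was 13.4 with nothing added to fragments and background, and 11.4 to 12.0 when 1 replicate was left out. Of 62 values of single genes, 4 moved by more than 1 SD, all with nothing added, to 25.8 for ENO1, 18.2 for GAPDH, 13.0 for PKM and 9.08 for TPI1. The pairs that did not overlap were 21 of 28 with a 1 kb window and 28 to 31 of 36 without 1 replicate, where fewer values make an overlap rarer. The share over all pairs of places, 58.5%, was made for all 3 replicates only. These counts therefore have no matching share beside them. The ratio of highest to lowest mean was 3.86 to 4.65 when 1 replicate was left out. Places in all replicates were 12 of 25 with a reciprocal overlap (33.1% of all places) and 13 of 23 by summit distance (35.5%). At a q-value of at most 0.001 they were 13 of 19, against 46.0% of all places. They were 14 of 16 without replicate 1, 15 of 19 without replicate 2 and 17 of 21 without replicate 3. The shares of all places rose as well in these 3 settings, to 63.0%, 56.4% and 55.2%. Paired within libraries, an alternative chosen after seeing the data, 30 of 36 pairs kept one order, against 71.4% of all pairs of places. Exact tests of 3 libraries cannot give p below 0.1 unpaired or 0.25 paired. All 3 places of 1 replicate were in replicate 1, which has the longest list. The share of replicate 1 among all such places was not counted.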

Other observations

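MYC peaks were also called 5 to 25 kb from the starts, too far to be assigned to the genes, at all of the genes but LDHA and ENO1. Except at TPI1 in replicate 1, they were weaker than the strongest assigned peak of the same gene and replicate. Within SLC2A1, whose length is 33541 bp in hg38, a cluster of peaks stood deep in the gene. One at 17652, 17582 and 17593 bp from the start had fold enrichments of 5.81, 5.41 and 5.12 in replicates 1, 2 and 3. A neighbour at 16979, 16870 and 16950 bp had 3.88, 3.65 and 5.67. A further one, at 15530 and 15533 bp, was called in replicates 1 and 2 at 6.07 and 5.26.

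HK2 and PKM each had 1 such peak in all 3 replicates. At HK2 it lay 11708, 11369 and 11621 bp into the gene with 4.15, 2.62 and 5.04, a wide spread in both position and height. At PKM it lay 8777, 8747 and 8775 bp into the gene with 3.91, 4.68 and 6.08. Around TPI1, peaks 23771, 23877 and 23785 bp past the start had 8.54, 4.09 and 4.86, of which the value of replicate 1 was above the 6.77 of the TPI1 peak itself. GPI had 1 distant peak, called in replicate 1 alone, 5409 bp before the given start at 4.32. In hg38 the GENCODE start of GPI lies 5512 bp from the nearest RefSeq start, and whether the distant peak lies at either was not determined.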
